A study of Mus musculus with 12 samples.

Results

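The 6 mouse genes that encode the subunits of protein kinase A, the 2 genes for its sperm anchors Akap3 and Akap4, and Adcy10, the soluble adenylyl cyclase, were followed in skeletal muscle and testis. They were taken by gene symbol, 9 of the 47730 features in the deposited table, by a rule that uses no measured value, although earlier results of these data were known when they were chosen. All 9 passed the filter on low values, which asks for 3 or more libraries with a normalised count of 10 or more, in every comparison. The libraries came from male C57BL/6J mice of 5 to 6 months, freely fed, whose gastrocnemius with plantaris and whose testes were frozen between ZT6 and ZT7. The mice were either wild type (Bckdk+/+) or carried on both chromosomes a mutant Bckdk allele (BckdkM/M) that had been crossed to C57BL/6J for at least 10 generations. Bckdk encodes the kinase that switches off branched-chain ketoacid dehydrogenase. The series title sets branched-chain amino acid sufficiency beside the response to luteinizing hormone, testosterone synthesis and motor coordination.

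There were 12 libraries in 4 groups of 3, from 7 mice. Letters stand for the mouse numbers. Mice A, B and C gave both tissues of the wild type. The mutant muscles were from mice D, F and G, whereas mice D, E and F gave the testes labelled mutant, so that 5 mice gave both tissues. Where 3 values are given for a group, they follow the order of the letters. Whole tissue was sequenced, so fewer cells of a type and less RNA per cell cannot be told apart in any result.

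Protein kinase A is held inactive as a tetramer of a pair of regulatory and a pair of catalytic subunits. Cyclic AMP binds the regulatory subunits and frees the catalytic ones, while A-kinase anchoring proteins tether the regulatory subunits to a place in the cell. In Leydig cells this pathway carries the luteinizing hormone signal to steroid synthesis, and in muscle it promotes glycogen breakdown. Sperm make their cyclic AMP mostly with the soluble cyclase, which bicarbonate activates, and hold the kinase on the fibrous sheath of the tail, whose main structural proteins are Akap4 and Akap3.

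The libraries held 12852427 to 15795722 reads. Bckdk fell in muscle from 2214, 2421 and 2627 normalised counts in the wild-type libraries to 14.8, 14.3 and 12.4 in the mutant ones (log2 change -7.35, SE 0.16, adjusted p = 1.66e-09, limma). In testis it stood at 68.0, 73.3 and 71.0 in wild-type libraries and at 138, 119 and 114 in those labelled mutant, so it was not lower there, and the testis groups are given as labelled. The feature NeoR had 2.28, 3.25 and 3.85 in wild-type muscle and 251, 208 and 266 in mutant muscle. In testis NeoR had 1.76, 2.50 and 3.34 in wild-type libraries and 13.1, 19.9 and 18.6 in those labelled mutant. Muscle fibre genes (6 of 6 markers measured) summed to 1320867 to 2619997 in muscle and to 120 to 14321 in testis. Elongating spermatid genes (6 of 6) summed to 141059 to 168573 in testis. In muscle they summed to 1592 to 1990 in the wild types, 2195 in mutant D, 797 in mutant F and 522 in mutant G. Pancreatic islet genes (8 of 8) summed to 13134 to 15390 in muscle A, B, C and D but to 31714 in F and 29891 in G, and in testis to 18811 in A, 18652 in B and 10255 to 13254 in the other 4 libraries. Muscle F and G, and testis A and B, thus stood apart from the rest. For the members, the values without them are given where they bear on a result, but for other genes they are not given.

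**Figure D1:**
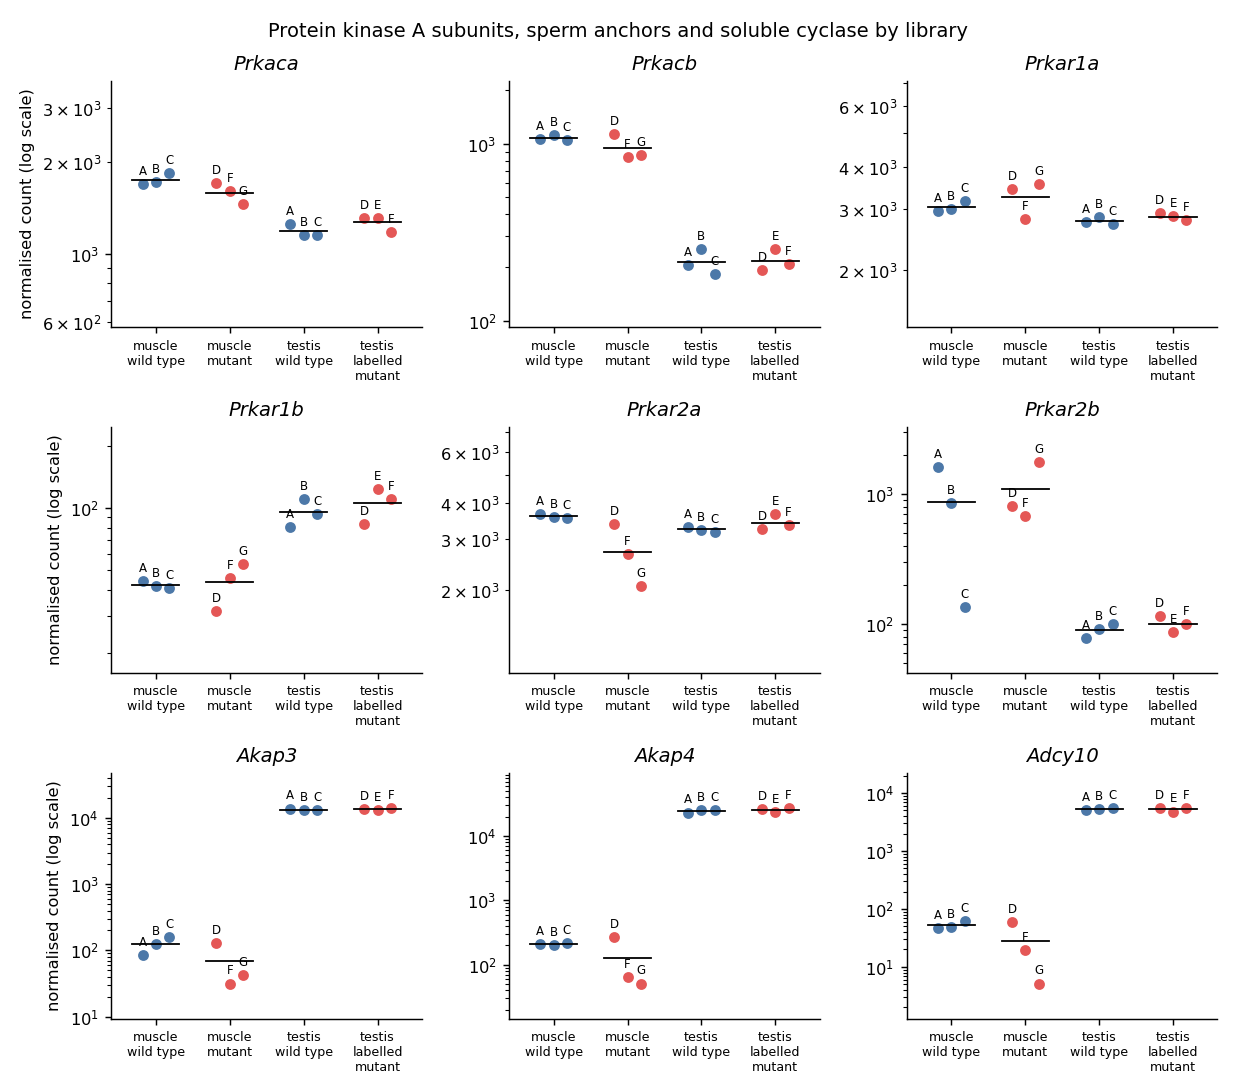
Normalised count of each of the 9 genes in every library, on a log axis of its own per gene. Points are libraries with the letter of the mouse, and lines are group means. Akap3, Akap4 and Adcy10 are high in all 6 testis libraries and under 300 in muscle, where mutants F and G are the lowest, and Prkar2b spans 136 to 1773 within muscle.

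The genes lie on 9 different chromosomes of GRCm38. Akap4 is on chromosome X (7067519 to 7078609, plus strand) and Akap3 on chromosome 6 (126853098 to 126874308, plus strand). Adcy10 is on chromosome 1 (165485183 to 165576774, plus strand) and has the most exon blocks of the 9, 36. Prkaca is on chromosome 8 (83972993 to 83996443, plus strand), Prkacb on chromosome 3 (146729574 to 146812990, minus strand), Prkar1a on chromosome 11 (109649405 to 109669656, plus strand), Prkar1b on chromosome 5 (139017306 to 139150001, minus strand), Prkar2a on chromosome 9 (108689314 to 108750436, plus strand) and Prkar2b on chromosome 12 (31958476 to 32061296, minus strand). Prkaca has 2 RefSeq starts 3905 bases apart, and an alternative first exon is known to give a sperm form of the subunit. A count per gene does not separate such forms. Prkar1b shares 341 bases of exon, 8.95% of its own, with Gm15672 on the same strand, so its counts are uncertain. No other member had an exon overlap or a near-identical copy.

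The upstream sequences of the 2 anchors, the members furthest apart between the tissues, are shown because they hold a run of letters in common. They are the 250 bases before the RefSeq start of Akap3 and before the first of the 2 RefSeq starts of Akap4, the one whose window holds the run (GRCm38.p6, plus strand), Akap3 at chr6:126852848-126853097 and Akap4 at chrX:7067265-7067514. Capitals mark the longest run of letters that both hold.
Akap3: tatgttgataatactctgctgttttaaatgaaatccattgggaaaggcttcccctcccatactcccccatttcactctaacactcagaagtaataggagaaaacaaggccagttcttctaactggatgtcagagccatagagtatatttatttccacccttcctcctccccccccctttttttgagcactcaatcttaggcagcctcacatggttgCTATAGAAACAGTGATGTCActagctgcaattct
Akap4: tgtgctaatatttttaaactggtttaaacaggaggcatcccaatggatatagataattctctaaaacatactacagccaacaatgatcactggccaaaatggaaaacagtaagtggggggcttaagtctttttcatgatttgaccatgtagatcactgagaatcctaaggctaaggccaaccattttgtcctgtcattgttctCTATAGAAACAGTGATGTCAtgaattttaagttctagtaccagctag
The run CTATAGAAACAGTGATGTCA has 20 bases and lies 34 to 15 bases before the start of Akap3 and 47 to 28 bases before that start of Akap4. Of 32851 windows of 250 bases before and 50 after a RefSeq start, 2 held it on either strand, those of these 2 genes. It ends in TGATGTCA, a variant of the cyclic AMP response element TGACGTCA, to which the CREB and CREM factors bind. TGATGTCA was found on either strand in 3.62% of the windows and 4.18% of genes. Among the 9 genes it was in windows of Akap3 and Akap4, where Akap3 held it once more across its start. TGACGTCA was found in 1.79% of the windows and 2.03% of genes, and among the 9 genes in Prkar1a, where 2 windows hold the same site. It lies 49 to 42 bases before one of 6 starts and within the first 50 bases after another (chr11:109650889-109650918, plus strand, capitals marking the element).
Prkar1a: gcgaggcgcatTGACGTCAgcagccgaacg
The core CGTCA, which TGACGTCA contains, was found in 20.8% of all windows and in 7 of the 23 windows of the 9 genes. By gene it was in 23.05% of all genes and in 5 of the 9, all subunits. A gene with more starts has more windows, such as Prkar1a with 6, and no test was made. These matches are of letters only.

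The sperm anchors and the soluble cyclase were the members that set testis apart from muscle. Akap4, which binds the kinase and forms the sheath, stood at 23248, 25443 and 25052 normalised counts in wild-type testis and at 211, 201 and 213 in wild-type muscle. The log2 difference, testis minus muscle, was 6.88 (SE 0.07, 117-fold, adjusted p = 7.17e-10, limma). Akap3, the anchor found in the ribs of the sheath, had 13876, 13169 and 13188 in testis and 85.4, 127 and 157 in muscle (6.80, SE 0.19, 112-fold, adjusted p = 1.19e-08, limma). Adcy10 had 4996, 5289 and 5532 in testis and 46.7, 49.8 and 62.9 in muscle (6.62, SE 0.12, 98.1-fold, adjusted p = 1.87e-09, limma). The testis libraries of each gene lay far above all muscle libraries. Differences of this size were not particular to them. Marker genes had medians of 6.53 for spermatocytes, 6.40 for round spermatids, 6.39 for elongating spermatids and 0.89 for spermatogonia. The part of germ cell transcripts in the muscle values was not tested. On the deposited rlog values, which shrink large differences, these were 5.09 for Akap4, 5.04 for Akap3 and 4.94 for Adcy10.

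Across the genome most genes differed between the tissues: 17575 of 19994 tested were called (87.9%), 50.6% higher in testis and 37.3% lower, and the median difference of all genes was 0.48. Of the 9 members 7 were called, 4 higher in testis and 3 lower, a share near that of all genes. The median of all genes was 0.32 with TMM scaling and 0.27 in edgeR, so small differences are to be read against this median. All 7 members were called, with the same sign, under each of the 17 alternatives tried for this comparison.

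Among the catalytic subunits, both were lower in testis. Prkaca, the main catalytic subunit of most tissues, had 1696, 1714 and 1835 normalised counts in wild-type muscle and 1250.5, 1152 and 1152 in wild-type testis (log2 difference -0.56, SE 0.07, adjusted p = 0.000105, limma). Prkacb, the second catalytic subunit, had 1054, 1118 and 1052 in muscle and 207, 253 and 185 in testis (-2.33, SE 0.12, adjusted p = 3.42e-07, limma). Neither gene's groups overlapped, and the gap was wider for Prkacb. Per kb of exon, Prkaca made up 85.1% ± 0.8 (SD, n = 3) of the catalytic transcripts in wild-type muscle and 95.1% ± 0.8 (SD, n = 3) in wild-type testis. The exact permutation test gave p = 0.1, the smallest that 3 libraries against 3 allow (adjusted over 5 shares, 0.167). The size of these shares depends on the length used, which the SD does not cover. Prkacb has 8772 bases of exon but a longest transcript of 4347, against 2488 and 2276 for Prkaca. By the longest transcript, or by counts not divided by length, the share of Prkaca is lower in both tissues.

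The regulatory subunits split. Prkar2b, the type II regulatory subunit known for its place in fat and brain, had 1630, 862 and 136 in wild-type muscle and 78.5, 91.6 and 100.2 in testis (log2 difference -2.67, SE 0.78, adjusted p = 0.0109, limma). The muscle libraries differed from each other far more than the testis ones, and library C came near the testis level. Without muscle A the difference was -1.92 (adjusted p = 0.0327), and without muscle C it was -3.71 (adjusted p = 8.11e-06). Prkar1b, the type I subunit best known from neurons, was higher in testis, with 81.2, 110.8 and 93.5 against 44.4, 42.2 and 41.1 in muscle (1.13, SE 0.21, adjusted p = 0.000944, limma). Its overlapping neighbour Gm15672 had means of 115 in wild-type testis and 43.2 in wild-type muscle, and its part in the Prkar1b count was not tested.

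Prkar1a and Prkar2a, the widely expressed regulatory subunits, were the members that differed least between the tissues. Prkar1a, which restrains the catalytic subunits in nearly every cell type, had 2974, 2998 and 3167 in wild-type muscle and 2758, 2845 and 2724 in wild-type testis. Prkar2a, the type II subunit that anchors in sperm as well as in muscle, had 3661, 3565 and 3543 and then 3305, 3228 and 3174. The groups did not overlap for either gene, as for 89.4% of all genes. Their log2 differences of -0.13 (95% interval -0.29 to 0.03, adjusted p = 0.0992) and -0.15 (-0.31 to 0.01, adjusted p = 0.0669) did not pass in limma. Both were called lower in testis with median-of-ratios or TMM scaling, in edgeR and in DESeq2, with -0.21 to -0.33 for Prkar1a and -0.22 to -0.35 for Prkar2a. Prkar2a was also called without muscle C (-0.16, adjusted p = 0.0227) and with no filter (-0.15, adjusted p = 0.0472).

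Levels per kb of the union of exons set the genes in an order that depends on this length. For Prkacb the union has 8772 bases and the longest transcript 4347, and for Adcy10 they have 8739 and 5569. The order by other lengths was not tested. In wild-type muscle Prkar1a stood at 705 ± 24 and Prkaca at 703 ± 30 normalised counts per kb (SD, n = 3), which lie within each other's spread. Prkar2a followed at 563 ± 9.8, then Prkar2b at 240 ± 205, whose spread reaches past Prkacb at 122 ± 4.3; in wild-type C it was 37.3, also below Akap4 and Akap3 in that library. Akap4 (68.8 ± 2.1), Akap3 (39.0 ± 11.3), Prkar1b (11.2 ± 0.4) and Adcy10 (6.08 ± 0.99) came last by their means, each below the one before it in all 3 libraries. In wild-type testis the order began with Akap4 at 8121 ± 387 and Akap3 at 4253 ± 128. Prkar1a (642 ± 14) and Adcy10 (603 ± 31) were near each other, as were Prkar2a (507 ± 10.3) and Prkaca (476 ± 23). Prkar1b, Prkar2b and Prkacb closed it at 24.98 ± 3.9, 24.7 ± 3.0 and 24.5 ± 4.0, not separable by their spread at this length. Akap4 transcripts per kb were 17.1 ± 1.6 times those of Prkaca in wild-type testis and 0.098 ± 0.004 times in wild-type muscle.

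The make-up of the regulatory subunits was steady in testis and varied in muscle. Prkar1a was 47.0% ± 7.4 of regulatory transcripts per kb in wild-type muscle and 53.6% ± 0.4 in wild-type testis, and Prkar2a was 37.4% ± 4.1 and 42.3% ± 0.8 (SD, n = 3 each). Prkar2b was 25.9%, 15.7% and 2.79% in wild-type muscle and 1.79%, 2.06% and 2.33% in testis. Prkar1b was 0.741% ± 0.065 in muscle and 2.08% ± 0.30 in testis. Of 15 shares compared, 5 in each of 3 comparisons, the groups were apart for 3, all between tissues: Prkaca, Prkar1b and Prkar2b, each with an exact permutation p of 0.1, the smallest possible, and 0.167 after adjustment. All regulatory transcripts per kb came to 1.85 ± 0.29 times the catalytic ones in wild-type muscle and 2.40 ± 0.11 times in wild-type testis.

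**Figure D2:**
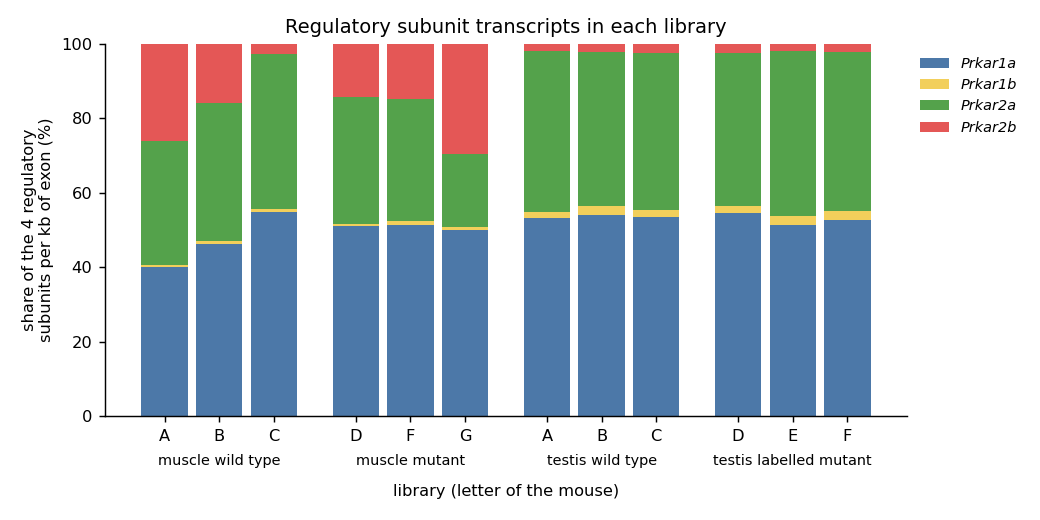
Share of each of the 4 regulatory subunits in their summed level per kb of exon, in percent, 1 bar per library. Prkar1a and Prkar2a make up nearly all of it in the 6 testis libraries, while Prkar2b takes 2.79% to 29.5% in muscle.

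Genes around the kinase were called about as often as genes at large. Over 9 lists of the pathway outside the members, 69 of 80 genes tested were called in limma (86.2%, against 87.9% of all genes), 69 in edgeR and 68 in DESeq2. The counts for single lists stand beside 50.6% of all genes called higher in testis and 37.3% called lower, and the medians beside 0.48 for all genes. All 7 fibrous sheath partners were higher in testis (median 6.34), among them Ropn1l (log2 difference 6.34) and Ropn1 (6.32), which bind anchors through the same kind of domain as the regulatory subunits, Cabyr (6.51) and Spa17 (5.501). Of 3 inhibitor proteins, which block free catalytic subunits, Pkia was lower in testis (-7.60), with 50.3, 31.7 and 96.0 in testis and 10042 to 11204 in muscle. Pkib (6.39) and Pkig (0.45) were higher in testis.

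Of 15 other anchoring proteins 8 were higher in testis and 4 lower (53.3% and 26.7%, median 0.40). Those with the smallest p were Akap12 (5.74), Akap1 of mitochondria (2.95), Akap10 (2.58) and, among the lower ones, Akap6 of the muscle nuclear envelope (-3.50). Of 8 transmembrane cyclases tested 5 were lower in testis, among them Adcy9 (-3.33), Adcy2 (-3.25), Adcy4 (-4.52) and Adcy6 (-2.09), and 1 was higher (median -1.72). Of 6 genes tested for bicarbonate supply 4 were higher, the sperm exchangers Slc9c1 (6.68) and Slc26a8 (6.56), the channel Cftr (5.80) and the carbonic anhydrase Car2 (3.76), and 2 were lower (median 4.78). Phosphodiesterases, which break down cyclic AMP, divided evenly, with 6 of 15 higher, such as Pde1c (5.77), Pde8a (3.53) and Pde10a (3.601), and 6 lower, such as Pde4d (-4.27), and a median of 0.38.

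Cyclic AMP effectors other than the kinase numbered 3 higher and 5 lower of 9 (median -0.82), with the Popeye proteins Popdc3 (-7.30), Bves (-6.99) and Popdc2 (-5.37) among the lower ones and the channel Hcn3 (2.74) higher. In the CREB family 5 of 9 were higher and 3 lower (median 0.44). The higher ones included Crem (3.38), the germ cell regulator, its partner Fhl5 (5.84), the kinesin Kif17 (6.71) that moves Fhl5, and Creb3l4 (6.46). Of 8 receptors and G proteins (median 0.56) 4 were higher, among them the Sertoli cell receptor Fshr (4.14), which had no reads in muscle, and 3 were lower, among them Gnas (-3.66), the stimulatory G protein, and Gnai2 (-1.09), an inhibitory one.

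**Figure D3:**
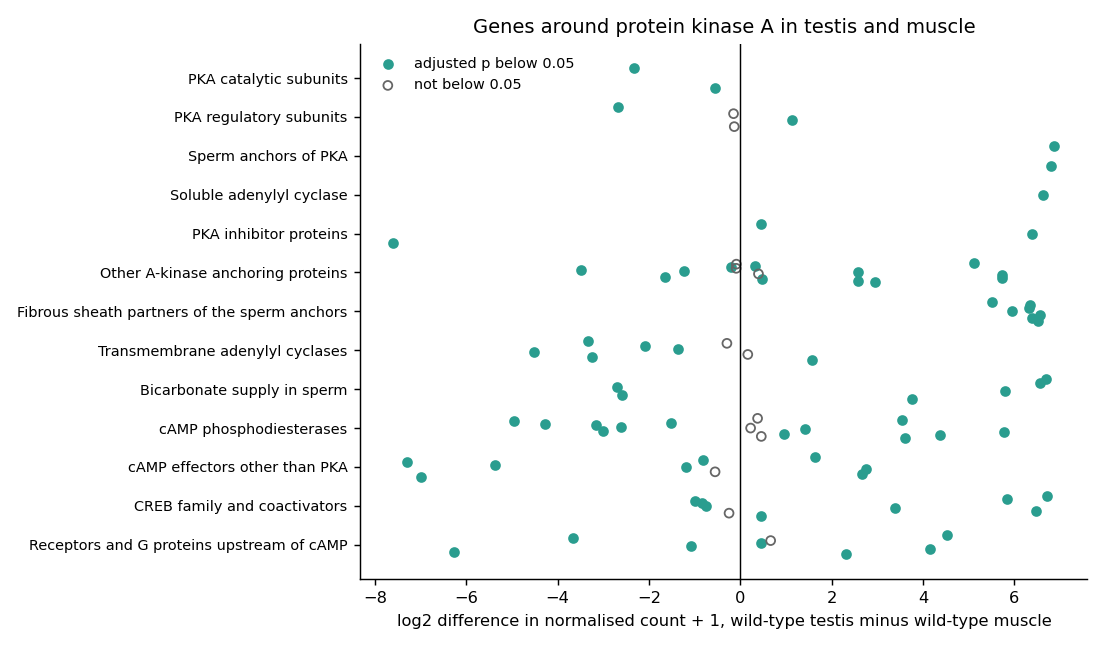
Log2 difference in normalised count + 1 between wild-type testis and wild-type muscle for each gene tested in the 13 lists, 1 row per list. Filled points have an adjusted p below 0.05 in limma. The sperm anchors, soluble cyclase and sheath partners all lie above 5, while the kinase subunits lie between -2.67 and 1.13.

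No member was called between the genotypes in muscle. Limma called 0 of the 9, against 6 of 16246 genes tested (0.0369%). At an unadjusted p under 0.05 there were 4 of 9, against 9.52% of all genes, and neither edgeR nor DESeq2 called any (0 each). The median log2 change of the 9 was -0.20, and that of all genes was -0.04.

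Prkar2a was the member whose muscle groups did not overlap, and it was lower in the mutants. It had 3661, 3565 and 3543 normalised counts in wild-type muscle and 3379, 2656 and 2060 in mutant muscle (D, F, G). Groups were apart in this way, lower in the mutants, for 8.85% of all genes and in either direction for 14%. The log2 change was -0.44 (SE 0.17, 95% interval -0.82 to -0.06, adjusted p = 0.519, limma). It was -0.62 without mutant D (adjusted p = 0.0549) and -0.09 without F and G, with D as the only mutant library. The sum of the muscle fibre markers was lowest in the same 2 libraries, at 1910209 in F and 1320867 in G against 2144322 to 2619997 in the other 4. Of its markers, Myh4, Atp2a1 and Acta1 were lowest in F and G, but others were not. Ckm, Tnnt3 and Mylpf in F lay above wild-type A and B, and so did Mylpf in G (130066 against 121052 and 116835). The part of muscle fibres in the Prkar2a values was not tested.

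Prkar1a had 3445, 2814 and 3550 in mutant muscle (log2 change 0.09, 95% interval -0.21 to 0.40, adjusted p = 0.813, limma), a spread wider than that of the wild types. Prkaca had 1697, 1600 and 1458 (-0.14, -0.42 to 0.13, adjusted p = 0.679) and Prkacb 1126, 834 and 862 (-0.20, -0.52 to 0.12, adjusted p = 0.614). Both overlapped the wild-type libraries through D. Prkar1b, with 31.9, 45.8 and 53.9, had a change of 0.01 (-0.61 to 0.63, adjusted p = 0.991).

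Prkar2b varied most. It had 813, 678 and 1773 in mutant muscle against 1630, 862 and 136 in wild-type muscle (log2 change 0.78, SE 0.71, 95% interval -0.78 to 2.34, adjusted p = 0.69, limma). Without wild-type C the change was -0.26, so its direction rests on that library. Adipocyte genes (6 of 6 markers, among them Adipoq and Cfd) summed to 21222, 17101 and 4003 in wild-type muscle and to 16922, 16917 and 54337 in mutant muscle. The 6 libraries stood in the same order by Prkar2b and by this sum, with G first and C last, though D and F were nearly equal in the sum. Single markers did not keep the whole order. By Adipoq F stood above D (2112 against 1730), and by Cfd D stood above A (10801 against 9808). Lep was highest in F (834) and lowest in D (92.4). The part of fat in the Prkar2b values was not tested.

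The germ cell members were low in muscle, and there they were lowest in mutants F and G. The sums of spermatocyte, round spermatid and elongating spermatid markers were also lowest in F and G. Not every single marker was: Sycp3 was highest in mutant G (399, against 240 to 322 in the wild types). Akap4 had 211, 201 and 213 normalised counts in wild-type muscle and 268, 63.2 and 50.8 in mutant muscle. Akap3 had 85.4, 127 and 157 and then 130, 31.6 and 42.5. Adcy10 had 46.7, 49.8 and 62.9 and then 59.3, 19.4 and 5.18, the last from 5 reads. In each gene mutant D lay with or above the wild types and F and G lay below all of them. The log2 changes were -1.12 (SE 0.48) for Akap4, -1.08 (SE 0.45) for Akap3 and -1.45 (SE 0.65) for Adcy10, each with an adjusted p of 0.519 in limma.

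Without mutant D all 3 were called, with -1.86 for Akap4 (adjusted p = 0.00554), -1.68 for Akap3 (adjusted p = 0.0251) and -2.26 for Adcy10 (adjusted p = 0.0391). The call count over all genes rose from 6, of 16246 tested with all libraries, to 497 in that fit. Without F and G, with D as the only mutant library, they were 0.36, 0.12 and 0.17. As a share of wild-type testis, Akap4 stood at 0.857%, 0.819% and 0.867% in the wild-type muscles, 1.09% in mutant D, 0.257% in F and 0.207% in G. The median of the 100 most abundant testis genes that averaged under 3% of their testis level in muscle, a list drawn from these libraries, was 1.10%, 1.04% and 1.23% in the wild-type muscles, 1.31% in D, 0.470% in F and 0.493% in G. Akap4 lay below that median in each of the 6 libraries and was lowest in F and G, as the median was. The part of these other transcripts in the differences was not tested.

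**Figure D4:**
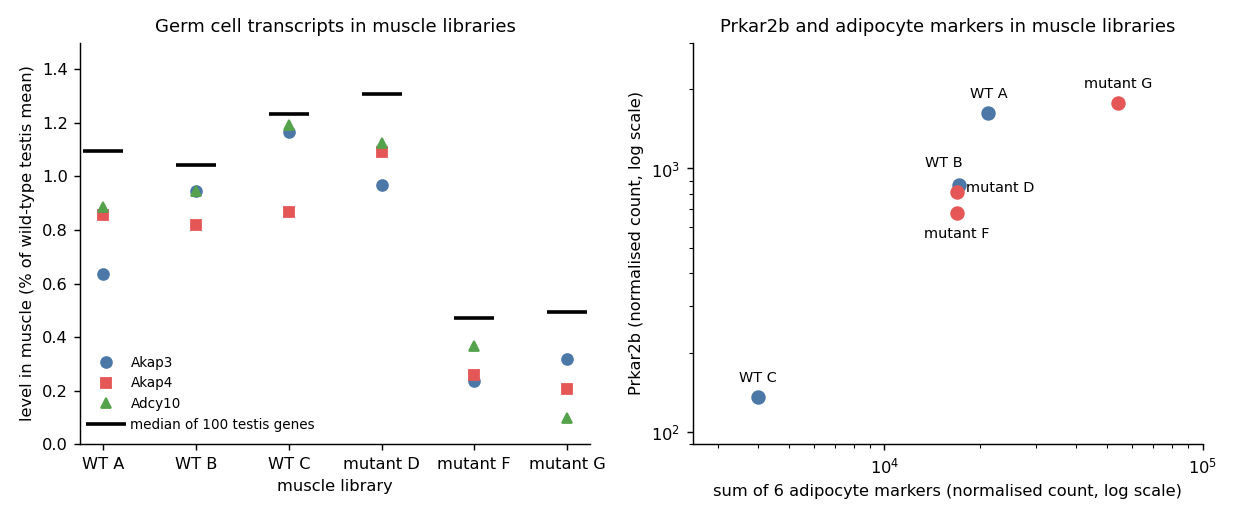
Left, Akap3, Akap4 and Adcy10 in each muscle library as a percentage of the wild-type testis mean, with the median of 100 testis genes as a bar; mutants F and G are lowest for all of them. Right, Prkar2b against the sum of 6 adipocyte markers in the muscle libraries, both in normalised counts on log axes, running from wild-type C at 136 to mutant G at 1773.

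In testis the 9 genes differed little between the labelled groups. Limma called 0 of 9, against 4 of 19543 genes tested (0.0205%), 0 had an unadjusted p under 0.05 against 7.09% of all genes, and edgeR and DESeq2 called 0 each. The groups overlapped for all 9, while they were apart for 13.4% of all genes. The largest change was 0.15 on the log2 scale. Sums of the markers of 3 germ cell stages did not overlap between the labelled groups, with wild-type spermatocyte sums (6 of 6 markers) of 53011 to 56165 against 58119 to 58789, round spermatid sums (6 of 6) of 13392 to 13686 against 14358 to 14593 and elongating spermatid sums of 141059 to 156904 against 160090 to 168573. Such sums follow their most abundant markers. Among the single markers of these 3 stages Ldhc and Hormad1 were apart, while all others overlapped, among them Prm2, Tnp2 and Acr. Spermatogonia sums (6 of 6) overlapped, at 967 to 1048.1 against 1035 to 1073. The part of these cells in the values of the 9 genes was not tested.

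Akap4 had 26060, 23725 and 27555 in the libraries labelled mutant, around the wild-type 23248, 25443 and 25052 (log2 change 0.07, 95% interval -0.06 to 0.19, adjusted p = 0.839, limma). Akap3 had 13745, 13123 and 14241 (0.03, -0.07 to 0.13, adjusted p = 0.914) and Adcy10 5436, 4796 and 5564 (0.00, -0.14 to 0.14, adjusted p = 0.995). For these 3 genes the intervals keep the change within 0.20 in either direction.

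Prkaca, with 1309, 1310 and 1178, had a change of 0.09 (95% interval -0.05 to 0.24, adjusted p = 0.794, limma). Prkar1a had 2931, 2861 and 2785 (0.04, -0.07 to 0.15, adjusted p = 0.885) and Prkar2a 3250, 3655 and 3336 (0.08, -0.05 to 0.20, adjusted p = 0.804). The low members had wider intervals, -0.28 to 0.33 for Prkacb (194, 254 and 209), -0.24 to 0.54 for Prkar1b (83.7, 123 and 111) and -0.20 to 0.51 for Prkar2b (115, 86.2 and 100.4). Leydig cell genes (6 of 6 markers), from the cells that respond to luteinizing hormone, summed to 6490 to 6608 in wild-type testis and to 8569, 7850 and 6416 in testis labelled mutant.

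**Figure D5:**
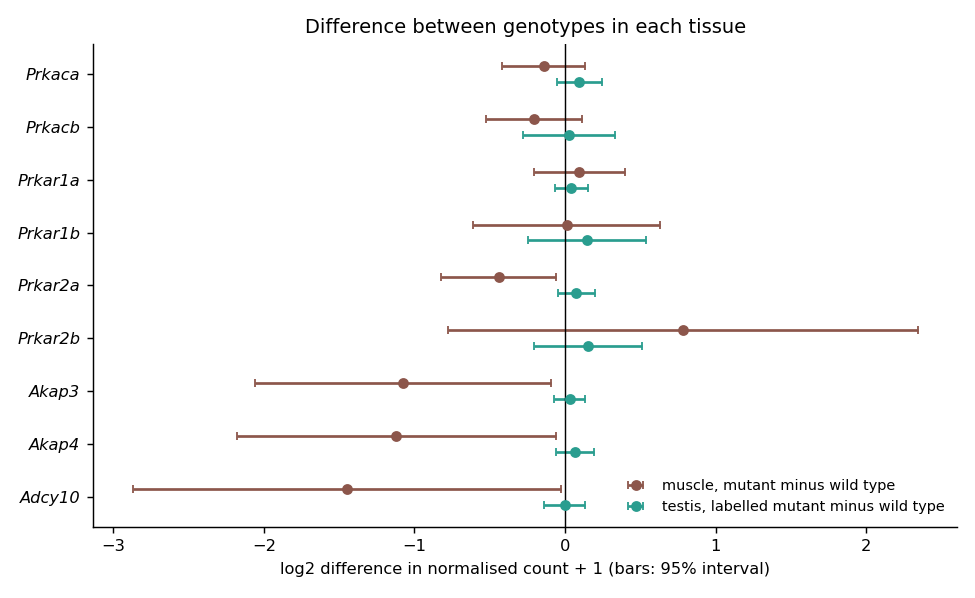
Log2 difference between genotypes for each gene, mutant minus wild type in muscle and labelled mutant minus wild type in testis, with 95% intervals from limma (3 libraries against 3). The testis values reach at most 0.15, and the muscle intervals of Prkar2a, Akap3, Akap4 and Adcy10 lie below 0 before adjustment.

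The difference between the tissues in the genotype effect was tested directly. Limma called 0 of the 9, against 2 of 14677 genes (0.0136%), and 1 had an unadjusted p under 0.05, against 8.69% of all genes, while edgeR and DESeq2 called 0 each. That member was Prkar2a, with a testis change 0.52 above the muscle change (SE 0.20, 95% interval 0.08 to 0.95, adjusted p = 0.574). Without muscle mutant D, Prkar2a (0.69, adjusted p = 0.0137), Akap3 (1.71, adjusted p = 0.00169), Akap4 (1.93, adjusted p = 1.83e-05) and Adcy10 (2.26, adjusted p = 0.0103) were called, among 951 genes in all.

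In the 9 pathway lists outside the members, no gene was called between genotypes by limma, edgeR or DESeq2 in either tissue (0 each). At an unadjusted p under 0.05 there were 8 of 75 in muscle (10.7%, against 9.52% of all genes) and 4 of 75 in testis (5.33%, against 7.09%). Among the genes named by rule, Adcy9, a transmembrane cyclase, had 825, 911 and 895 in wild-type muscle and 640, 450 and 184 in the mutants, a log2 change of -1.22 (SE 0.35, adjusted p = 0.519, limma). Its groups were apart, with F and G again the lowest. Pde4b had a change of -0.55 and Pde4d one of -0.80, each with an adjusted p of 0.519.

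All 7 sheath partners had negative values in muscle (median -0.62), among them Fsip2, for which wild-type muscle had 57.3 to 95.004 and mutant muscle 92.4, 21.4 and 12.4. As for Akap4, F and G were the lowest, and none of the 7 passed. In testis, Pkia had 50.3, 31.7 and 96.0 in wild-type libraries against 104, 78.7 and 92.4 in those labelled mutant (log2 change 0.75, SE 0.31, adjusted p = 0.696, limma). Muscle genes were also lowest in wild-type testis A and B, where the median of 100 muscle genes was 0.484% and 0.274% of its muscle level, against 0.732% to 0.844% in the other 4. The part of muscle RNA in the Pkia values was not tested. Lhcgr, the luteinizing hormone receptor that signals through the kinase, had 39.7, 62.5 and 54.3 in wild-type testis and 81.7, 73.7 and 61.3 in testis labelled mutant (0.48, SE 0.21, adjusted p = 0.698).

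The genes whose profile over the 12 libraries lay nearest to Akap4, by Euclidean distance of centred log2 values among 21099 genes, were Dnah8 (distance 0.30), a dynein heavy chain of the sperm tail, Pdha2 (0.36), the testis pyruvate dehydrogenase subunit, and Thegl (0.42). Dnah8 averaged 22999 normalised counts in wild-type testis and 197 in wild-type muscle, near the means of Akap4, 24581 and 208. The distances are over libraries that these genes share, and no test goes with them. Nearest to Prkaca were Setd3 (0.19), the actin histidine methyltransferase, Asb8 (0.24) and Lars (0.24), the leucyl-tRNA synthetase.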

How the data were processed

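Polyadenylated RNA of 12 libraries (about 20 mg of frozen tissue powder each, RQN over 7.2, 150-base paired ends, per the labels' protocols) was analysed from 2 deposited tables. The submitters' processing notes name the build GRCm38.p4 and, without the role of each, HTSeq 0.11.2 with HISAT2 2.1.0, fastp 0.23.4 with Picard 1.119, and DESeq2 1.46.0; the use of strand is not given in the sources used here. The first table holds signal values, which the authors deposited as normalised counts, each library's reads having been divided by its size factor. All of them (100%) came out as whole reads to within 0.001 when divided by a step found for each library, which gave 12852427 to 15795722 reads per library. For testis library D labelled mutant the step (1.01) is so near 1 that it is less certain, and the lowest of these totals is that library's. The other deposited table gives 27384 features as regularised log2 values (rlog). In testis library D labelled mutant, 26 cells had been turned into dates and were treated as missing; none belonged to the 9 genes.

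Differences are on the log2(normalised count + 1) scale, which understates changes of low genes. They were tested with limma 3.58.1 in R 4.3.3 (two-sided; lmFit, then eBayes with trend) on genes at 10 or more in at least 3 libraries of the fit (in each tissue for the test of the difference between tissues). Adjustment was by Benjamini-Hochberg over every gene tested, with calls made under an adjusted p of 0.05. Subunit shares, per kb of the union of exons (GENCODE M21 on GRCm38), were compared by two-sided exact permutation tests (scipy 1.17.1), adjusted over the 5 shares of a comparison. Near copies were sought with BLAST 2.17.0 (at least 95% identity over 150 bases).

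The 9 genes, the lists and the motifs were chosen with earlier results of these data known. Other genes are named from each pathway list by rule, up to 4 called members with the smallest p or else the 2 with the smallest p, and for Akap4 and Prkaca the 3 genes nearest in profile; 1 gene that the rule names is not reported here. Letters stand for mouse numbers in the column headers. These tie muscle and testis of A, B, C, D and F to the same mouse; the titles' replicate numbers were not used to pair. Deviations of the same wild-type mouse in the 2 tissues correlated at -0.041 (A), 0.00034 (B) and -0.012 (C) over 13516 genes. Whether the mice of a group shared a litter or cage is not given in the sources used here. Alternatives were pseudocounts of 0.5 and 8, no filter, a mean of at least 50, median-of-ratios or TMM scaling, the deposited rlog values, edgeR 4.0.16 and DESeq2 1.42.0 on the recovered counts, a model of all 12 libraries, leaving out each library, and the mouse as a block. For shares the alternatives were counts not divided by length, the longest transcript and leaving out each library. Leaving out mutant F and G in muscle, and wild-type A and B in testis, was added after the data had been seen. It leaves D as the only mutant muscle library and C as the only wild-type testis library.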

Additional observations from a re-analysis of the deposited data

How the results depend on the processing

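In the genotype comparisons a member was called under 1 alternative, leaving out muscle mutant D, and between tissues Prkar1a and Prkar2a passed or missed by scaling and tool. In muscle the count over all genes was 6 and became 14 with no filter, 34 in DESeq2, 28 with all 12 libraries in one model, and 3 to 497 leaving out single libraries. In testis it was 4 and became 1 with a pseudocount of 0.5, a mean of at least 50 or TMM, 2 on rlog values, 10 in DESeq2, and 1 to 6 leaving out single libraries. For the genotype effect between tissues it was 2 and became 1 with no filter, a mean of at least 50, edgeR or the mouse as a replicate block, 50 in DESeq2, and 1 to 951 leaving out single libraries. Between tissues it was 17575, 17403 with the mouse as a replicate block, and 13480 to 16721 leaving out single libraries; the lowest counts came without a testis library, where fewer genes met the filter. The number of shares with groups apart, a summary defined after the data had been seen, was 3, and 3 to 6 leaving out single libraries. The block changed no call of a member.

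Changes of sign were limited to members and shares that were not called, and their cause was not tested. In muscle, without F and G, the log2 change became 0.068 for Prkacb, -0.40 for Prkar1b, 0.12 for Akap3, 0.36 for Akap4 and 0.17 for Adcy10. In testis Prkacb was -0.0051 with median-of-ratios scaling, -0.0020 with TMM, -0.0090 in edgeR and -0.0074 in DESeq2; Akap3 was -0.0026, -0.0073 and -0.0047 with median-of-ratios scaling, edgeR and DESeq2, and Prkar2b -0.0059 without wild-type A and B. Leaving out single libraries gave -0.15 to 0.22 for Prkar1b and -0.26 to 1.53 for Prkar2b in muscle, and -0.085 to 0.15 for Prkacb and -0.045 to 0.062 for Adcy10 in testis. For the genotype effect between tissues it gave -0.16 to 0.011 for Prkar1a (0.010 with the mouse block), -0.072 to 0.30 for Prkar1b and -1.38 to 0.41 for Prkar2b. For shares it gave, in percentage points between genotypes in muscle, -1.34 to 10.2 (Prkar2b), -0.24 to 1.24 (Prkaca) and -0.042 to 0.16 (Prkar1b). In testis these were -0.013 to 0.36 (Prkar1b), -0.26 to 0.50 (Prkaca), -0.023 to 0.33 (Prkar2b), -1.59 to 0.094 (Prkar1a) and -0.42 to 1.25 (Prkar2a). Few reads limit Adcy10 in muscle, which had 5 in mutant G.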
